A study of Mus musculus with 3 samples.

Results

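The genes described here encode receptors of the bone morphogenetic protein (BMP) and transforming growth factor-β (TGF-β) pathways and the inhibitors and targets through which these pathways are read out. They were chosen by name as 10 genes, namely the co-receptors Eng and Tgfbr3, the type I receptors Acvrl1 and Tgfbr1, the type II receptors Bmpr2 and Tgfbr2, the inhibitory Smads Smad6 and Smad7, and the targets Id1 and Id3. All 10 were found among the 17583 genes of the deposited table. The RNA was bound to ribosomes of cardiac endothelial cells from 3 mice of the genotype Cdh5-CreERT2;Rpl22tm1.1Psam (EC-RiboTag), in which tamoxifen-induced Cre, driven by the endothelial Cdh5 promoter, switches the ribosomal protein RPL22 to a hemagglutinin-tagged form, and the tagged ribosomes were immunoprecipitated from homogenized heart. All mice form a single group without a control or input library, and every value below is a level in the immunoprecipitate, not an enrichment. By the labels, hearts were taken 7 days after coronary ligation, and the titles carry the letters Rz. The study writes RZ for the remote zone, away from the infarct, and describes RiboTag RNA from zones of infarcted hearts in another experiment, while its RiboTag methods mention no infarction. No source used here states the zone of these 3 libraries outright. The labels give no age or sex for these mice, and they call the libraries biological replicates.

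Ligands of this family bring type I and type II serine/threonine kinase receptors together, the type II receptor phosphorylates the type I receptor, and the type I receptor phosphorylates receptor Smads that enter the nucleus with Smad4. In endothelium, circulating BMP9 and BMP10 act through ALK1 (the product of Acvrl1), BMPR2 and the co-receptor endoglin (Eng), whereas TGF-β binds TGFBR2 and acts through ALK5 (the product of Tgfbr1), with betaglycan (Tgfbr3) as co-receptor. Inherited loss of one copy of Eng or Acvrl1 causes hereditary hemorrhagic telangiectasia, and loss of one copy of BMPR2 is the main inherited cause of pulmonary arterial hypertension.

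The deposited values are read counts scaled by the authors with DESeq2 size factors and then rounded, here called normalized counts. From the whole numbers that rounding left empty or doubled, the libraries were estimated to hold about 7320000, 6755000 and 7566000 reads on the listed genes. The endothelial label was checked against 8 markers. All 8, including Cdh5 and Pecam1, were present, with summed normalized counts between 21211 and 22479 in the 3 mice. Markers of other cells were present too. The sums were 19248 to 23022 for 8 cardiomyocyte genes, 3047 to 4186 for 8 fibroblast genes, 1372 to 2104 for 8 mural cell genes and 573 to 815 for the 7 listed of 8 leukocyte genes, of which Cd3e was not listed and none was at 0 in all mice. The cardiomyocyte sum was about as large as the endothelial sum, so the values below cannot be taken as endothelial alone. These sums were not divided by transcript length, and Ttn, with 107543 bases, had a mean of 8437. Per kilobase of canonical transcript, the median of the endothelial genes was 627, 602 and 599 in the 3 mice. That of the cardiomyocyte genes was 449, 446 and 441. Fibroblasts and mural cells also use TGF-β receptors. The part of cardiomyocytes and of these other cells in the values below was not tested. Fewer cells of a type and less RNA per cell cannot be told apart in these bulk libraries.

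All 10 genes had a mean normalized count of at least 200, which 53.2% of the listed genes reached. Their median of these means was 1331, against 237 over all listed genes. Long transcripts give more reads for each molecule, so genes were compared with each other per kilobase of the Ensembl canonical transcript. On this scale the median of the 10 genes was 358 normalized counts per kilobase, against 176.3 for the 9356 genes of known length that reached a mean of 200. Acvrl1, Eng, Id1 and Id3, 4 of the 10, lay in the highest 10% of those genes, a range that holds 9.99% of them by construction. Acvrl1 and Eng stood between 809 and 837 per kilobase, Id1 and Id3 between 633 and 639, and the other 6 genes between 117.4 and 389. The 4 receptors at the lower end, Tgfbr2, Bmpr2, Tgfbr3 and Tgfbr1, were near the median of those 9356 genes or below it.

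**Figure D1:**
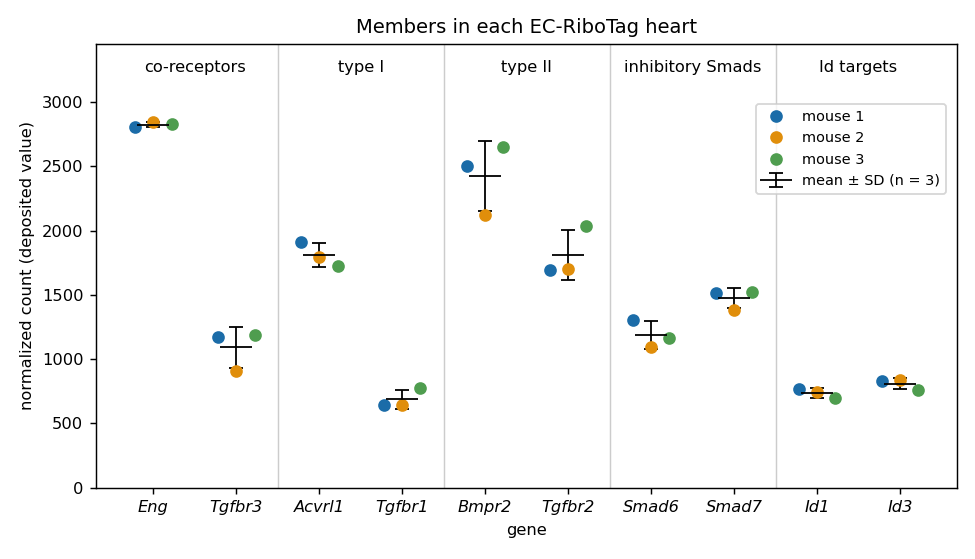
Normalized counts of the 10 genes (vertical axis, deposited values) in each of the 3 EC-RiboTag hearts, grouped by role along the horizontal axis, with black bars for the mean ± SD over mice. Eng lay between 2802 and 2842 in all mice, whereas Tgfbr3 and Bmpr2 were lowest in mouse 2 and Tgfbr1 and Tgfbr2 were highest in mouse 3.

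Eng encodes endoglin, the co-receptor that presents BMP9 and BMP10 to ALK1. The gene (ENSMUSG00000026814) lies on chromosome 2 of GRCm39, plus strand, between 32536607 and 32572681 and its canonical transcript has 15 exons. Normalized counts of Eng were 2802, 2842 and 2828 in mice 1, 2 and 3. The 3 hearts were nearly level, and Eng ranked 48 of all listed genes by its mean of 2824 ± 20.3 (SD, n = 3). The coefficient of variation between mice was 0.72%, below the 1.88% that counting error alone gives at this depth. The 1.88% takes no account of the removal of duplicate reads. Among genes whose mean reached 200, only 0.62% had a coefficient as low as this. Tgfbr3 encodes betaglycan, which presents TGF-β to its receptors and also binds inhibin, and the gene (ENSMUSG00000029287) lies on chromosome 5, minus strand, between 107254436 and 107437495. Its normalized counts were 1175, 907 and 1190, with mouse 2 below the others and a mean of 1091 ± 159.2 (SD, n = 3). Reads that overlap several genes were not counted, and 4.34% of the exonic bases of Tgfbr3 are shared with another gene on its strand.

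Within each mouse the level of Eng per kilobase exceeded that of Tgfbr3. The log2 ratio was 2.06, 2.45 and 2.05, with a mean of 2.19 ± 0.23 (SD, n = 3), a 4.55-fold difference. Eng was higher than Tgfbr3 in 3 of 3 mice under every length tried, but the size of the ratio depended on the length and was 2.29-fold when all annotated exons were joined. For reference, Cdh5, which encodes VE-cadherin, had 713 ± 15.2 per kilobase (SD, n = 3). Taken as a share of Cdh5 in the same mouse, the level per kilobase was 113.6% ± 2.0 for Eng and 25.1% ± 3.7 for Tgfbr3 (SD, n = 3).

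Acvrl1 encodes ALK1, the type I receptor that is largely restricted to endothelium and phosphorylates Smad1 and Smad5. The gene (ENSMUSG00000000530) lies on chromosome 15, plus strand, between 101026403 and 101043217, with 10 exons in the canonical transcript. Normalized counts were 1911, 1793 and 1727 in mice 1, 2 and 3, with a mean of 1810 ± 93.2 (SD, n = 3). The highest and lowest mouse differed by little, and mouse 3 was lowest. Per kilobase, Acvrl1 was the highest of the 10 genes at 837 ± 43.1 (SD, n = 3) and ranked 37 of 9356 genes. This place rests on the canonical length, since Acvrl1 was the sixth of the 10 with all annotated exons joined, the fourth with coding length and the third by normalized count. Tgfbr1 (ENSMUSG00000007613), which encodes the widely used TGF-β type I receptor ALK5 that phosphorylates Smad2 and Smad3, lies on chromosome 4, plus strand, between 47353222 and 47414931. Its normalized counts were 643, 642 and 774. Mice 1 and 2 were level and mouse 3 was higher, with a mean of 686 ± 75.9 (SD, n = 3). Tgfbr1 was the lowest of the 10 genes both by normalized count and per kilobase, where it had 117.4 ± 13.0 (SD, n = 3) and ranked 6524. With coding length Tgfbr3 was lower, at 428 against 455 for Tgfbr1.

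Per kilobase, Acvrl1 exceeded Tgfbr1 with log2 ratios of 3.01, 2.92 and 2.59 and a mean of 2.84 ± 0.22 (SD, n = 3), or 7.15-fold. With all annotated exons joined the difference was 2.32-fold, and without division by length it was 2.65-fold. By canonical length this ratio was the largest of the 5 pairs of like role. It was close to the ratio of Eng to Tgfbr3 with joined exons (2.29-fold) and without division by length (2.61-fold), and with coding length it was below it, at 2.65-fold against 3.40-fold. The joined exons of Acvrl1 measure 7555 bases against 2162 in its canonical transcript. The transcript forms present in these cells were not tested.

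Bmpr2 (ENSMUSG00000067336) encodes the type II receptor of BMP ligands and lies on chromosome 1, plus strand, between 59802559 and 59918173. Its canonical transcript of 12914 bases is the longest of the 10. Normalized counts were 2501, 2122 and 2649, with mouse 2 lowest and a mean of 2424 ± 272 (SD, n = 3), so that Bmpr2 ranked 103 of all listed genes. Tgfbr2 (ENSMUSG00000032440) encodes the TGF-β type II receptor and lies on chromosome 9, minus strand, between 115913361 and 116004428, with 7 exons in a canonical transcript of 8484 bases. Its normalized counts were 1694, 1697 and 2035. The values of mice 1 and 2 nearly coincided and mouse 3 was higher, with a mean of 1809 ± 196 (SD, n = 3). By normalized count, Bmpr2 exceeded Tgfbr2 in every mouse. Per kilobase the order turned, with 187.7 ± 21.0 for Bmpr2 and 213.2 ± 23.1 for Tgfbr2 (SD, n = 3) and a log2 ratio of Bmpr2 to Tgfbr2 of -0.18 ± 0.13 (SD, n = 3), between -0.28 and -0.04. Tgfbr2 was the higher in 3 of 3 mice, although the ranges of the type II receptors over mice overlapped.

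Smad6 and Smad7 encode inhibitory Smads, which are induced by the pathways and bind activated type I receptors to end signaling. Smad6 acts mainly on BMP receptors and Smad7 on both branches. Smad6 (ENSMUSG00000036867) lies on chromosome 9, minus strand, between 63860358 and 63929341 and had normalized counts of 1307, 1096 and 1164, with mouse 1 highest and a mean of 1189 ± 107.7 (SD, n = 3). Smad7 (ENSMUSG00000025880) lies on chromosome 18, plus strand, between 75500600 and 75529006 and had 1518, 1382 and 1521, with mouse 2 lowest and a mean of 1474 ± 79.4 (SD, n = 3). Per kilobase, Smad6 had 389 ± 35.2 and Smad7 had 327 ± 17.6 (SD, n = 3). Smad6 was higher in 3 of 3 mice by a log2 ratio of 0.25 ± 0.09 (SD, n = 3). This direction held with joined exons and turned without division by length (-0.31) and with coding length (-0.53), so the data set no order between the inhibitory Smads that is free of the choice of length.

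Id1 and Id3 encode helix-loop-helix proteins without a DNA-binding region, which bind and block basic helix-loop-helix factors. Both are direct targets of BMP-activated Smad1 and Smad5. Id1 (ENSMUSG00000042745) lies on chromosome 2, plus strand, between 152578171 and 152579330, with 2 exons in a canonical transcript of 1154 bases, and had normalized counts of 771, 742 and 698, with a mean of 737 ± 36.8 (SD, n = 3). Id3 (ENSMUSG00000007872) lies on chromosome 4, plus strand, between 135870808 and 135873066, with 3 exons in 1278 bases, and had 833, 836 and 758, with a mean of 809 ± 44.2 (SD, n = 3). Mouse 3 was lowest for both genes. Although their counts were modest, their short transcripts placed them high per kilobase, with 639 ± 31.9 for Id1 and 633 ± 34.6 for Id3 (SD, n = 3), ranks 206 and 217 of 9356. The log2 ratio of Id1 to Id3 was 0.04, -0.02 and 0.03 in the 3 mice, with a mean of 0.01 ± 0.03 (SD, n = 3), so per kilobase of canonical transcript the genes differed by less than the spread between mice. Without division by length, Id3 was higher in all mice.

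Promoter sequence is shown for a co-receptor, a type II receptor and a target at which the pathway is read out, to let the letters that Smad proteins bind be seen beside the levels. The 250 bases upstream of the start were taken from RefSeq for the build GRCm38.p6, in which entries were found for 6 of the 10 genes (Eng, Tgfbr1, Bmpr2, Tgfbr2, Smad6 and Id3) and not for Tgfbr3, Acvrl1, Smad7 and Id1. Capitals mark GTCTG or its reverse complement CAGAC, which holds the core of the Smad box, and GGCGCC, a palindrome and a GC-rich motif bound by BMP-activated Smads. The windows lie at chr2:32646345-32646594 (plus strand) for Eng, chr1:59764029-59764278 (plus strand) for Bmpr2 and chr4:136143572-136143821 (plus strand) for Id3.
Eng: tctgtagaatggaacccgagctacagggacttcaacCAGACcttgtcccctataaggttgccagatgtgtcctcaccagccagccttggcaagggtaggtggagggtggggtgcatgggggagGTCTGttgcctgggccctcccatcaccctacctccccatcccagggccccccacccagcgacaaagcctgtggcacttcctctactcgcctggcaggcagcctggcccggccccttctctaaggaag
Bmpr2: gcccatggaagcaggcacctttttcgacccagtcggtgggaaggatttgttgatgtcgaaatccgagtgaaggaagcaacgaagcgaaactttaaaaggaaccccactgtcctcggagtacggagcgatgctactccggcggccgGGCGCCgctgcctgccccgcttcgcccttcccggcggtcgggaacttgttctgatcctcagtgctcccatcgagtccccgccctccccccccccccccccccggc
Id3: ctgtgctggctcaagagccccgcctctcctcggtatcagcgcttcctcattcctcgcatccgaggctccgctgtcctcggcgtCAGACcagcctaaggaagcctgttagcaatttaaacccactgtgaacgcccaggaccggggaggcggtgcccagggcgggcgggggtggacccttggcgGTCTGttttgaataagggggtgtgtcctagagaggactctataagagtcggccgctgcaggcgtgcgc
The Eng window held the GTCTG letters, on either strand, 214 and 127 bases before the start, and the Id3 window held them 167 and 68 bases before it. GGCGCC stood 105 bases before the start of Bmpr2. Of the windows not printed, that of Tgfbr2 held the GTCTG letters 160 bases before the start. Tgfbr1 had a pair of windows, of which one held GGCGCC 233 bases and the other the GTCTG letters 203 bases before the start, and the Smad6 window held neither motif. Of all 32851 promoter windows of this length, 42.2% held GTCTG or CAGAC and 9.59% held GGCGCC, so a match is a description of the letters only.

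Ordered per kilobase, the 10 genes were Acvrl1, Eng, Id1, Id3, Smad6, Smad7, Tgfbr2, Bmpr2, Tgfbr3 and Tgfbr1. In all, 11 ratios were compared within mice, namely the 5 pairs of like role and the 9 pairs of neighbours in this order, of which 3 are shared. The neighbours were taken from the means of these same mice, so a steady order among them is partly built in. The order was the same in each of the 3 mice for 9 of the 11 ratios. It changed between mice for Acvrl1 and Eng, whose log2 ratio was 0.05 ± 0.08 (SD, n = 3), and for Id1 and Id3. The steps from Eng to Id1 (0.34 ± 0.08), from Id3 to Smad6 (0.71 ± 0.14), from Smad7 to Tgfbr2 (0.62 ± 0.13) and from Tgfbr3 to Tgfbr1 (0.60 ± 0.19) were larger than their SDs over the 3 mice by canonical length. The order as a whole rests on that length, since each of the 9 neighbouring steps changed direction under at least 1 of the 3 other choices. The log2 ratio of Eng to Id1 turned to -0.20 both with joined exons and with coding length. Without division by length, it turned to -0.55 for Id3 to Smad6 and to -0.29 for Smad7 to Tgfbr2. With coding length, the ratio of Tgfbr3 to Tgfbr1 was -0.09 ± 0.19 (SD, n = 3), within the spread. Bmpr2 exceeded Tgfbr3 by 0.07 ± 0.07 (SD, n = 3), which is within the spread. With 3 mice, 0.25 is the smallest two-sided p of an exact sign-flip permutation test, and 0.05 is out of reach. The 9 ratios with a steady order had p = 0.25, or 0.306 after Benjamini-Hochberg adjustment over the 11 ratios in this exact test, and the other 2 had p = 0.5.

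**Figure D2:**
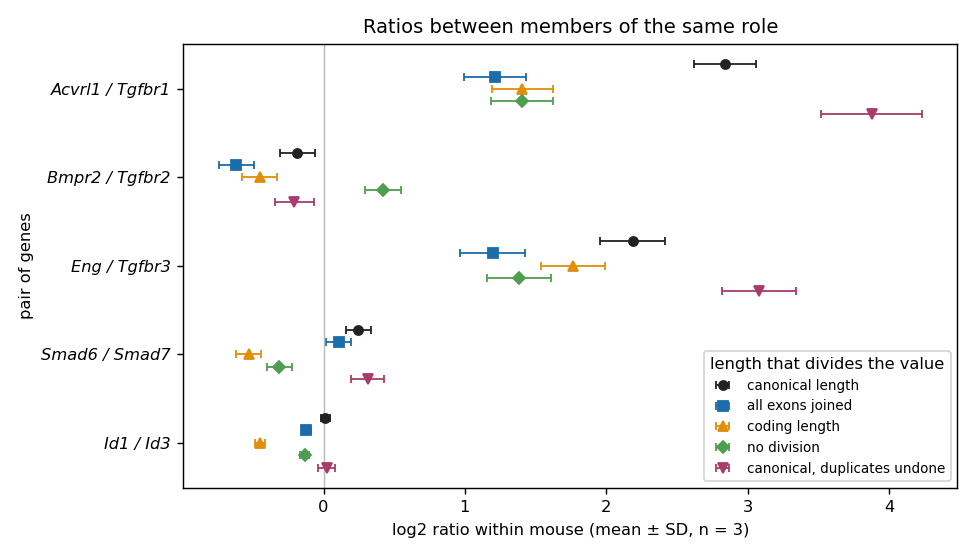
Log2 ratio within mouse for the 5 pairs of like role (horizontal axis; points are means and bars SDs over 3 mice) under 4 choices of length and with duplicate removal undone. Acvrl1 to Tgfbr1 and Eng to Tgfbr3 stayed above 0 throughout, whereas the other ratios lay near 0 and 3 of the 5 pairs changed sign with the length.

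A pair of library features bears on these levels. One is the removal of duplicate reads, after which a start position counts about 1 time however abundant the RNA. Acvrl1 and Eng, at 837 and 809 per kilobase of canonical transcript, came near 1 read per base, and 14 of the 9356 genes exceeded it. With all annotated exons joined, Acvrl1 had 240 and Eng 362 per kilobase, further below 1 read per base. If reads start evenly along the canonical transcript, undoing the removal would place Acvrl1 at 1816, Eng at 1658, Id1 at 1018 and Id3 at 1002 per kilobase, while Tgfbr1 would stay at 124.9. The fold of Eng over Tgfbr3 would then be 8.46 and that of Acvrl1 over Tgfbr1 14.7. This calculation was chosen after seeing the data.

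The other is a trend with transcript length that differed between mice. Over the 9356 genes, the log2 deviation of mouse 3 from the mean of the other mice rose from a median of -0.13 in the 10% of genes with the shortest transcripts to 0.15 in the 10% with the longest (Spearman correlation with length across genes 0.47, given as a description, since genes of 1 library are not independent). In mouse 1 it fell from 0.08 to -0.12. Most of the 10 genes moved in the same sense in mouse 3. Id1, Id3 and Acvrl1, with short transcripts, deviated by -0.12, -0.14 and -0.10 in mouse 3, against medians of -0.13, -0.13 and -0.08 for genes of their length. Tgfbr1, Tgfbr2 and Bmpr2, with long transcripts, deviated by 0.27, 0.26 and 0.20, against medians of 0.08, 0.15 and 0.15. For 9 of the 10 genes the deviation of mouse 3 had the sign of the median of their length, and for 9 of 10 it was smaller once that median was subtracted. Eng was the exception in both counts. Neither count was taken over the 9356 genes, so they do not set these 10 genes apart. The lower values of Id1, Id3 and Acvrl1 in mouse 3 were thus of the size seen in other genes of like length.

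**Figure D3:**
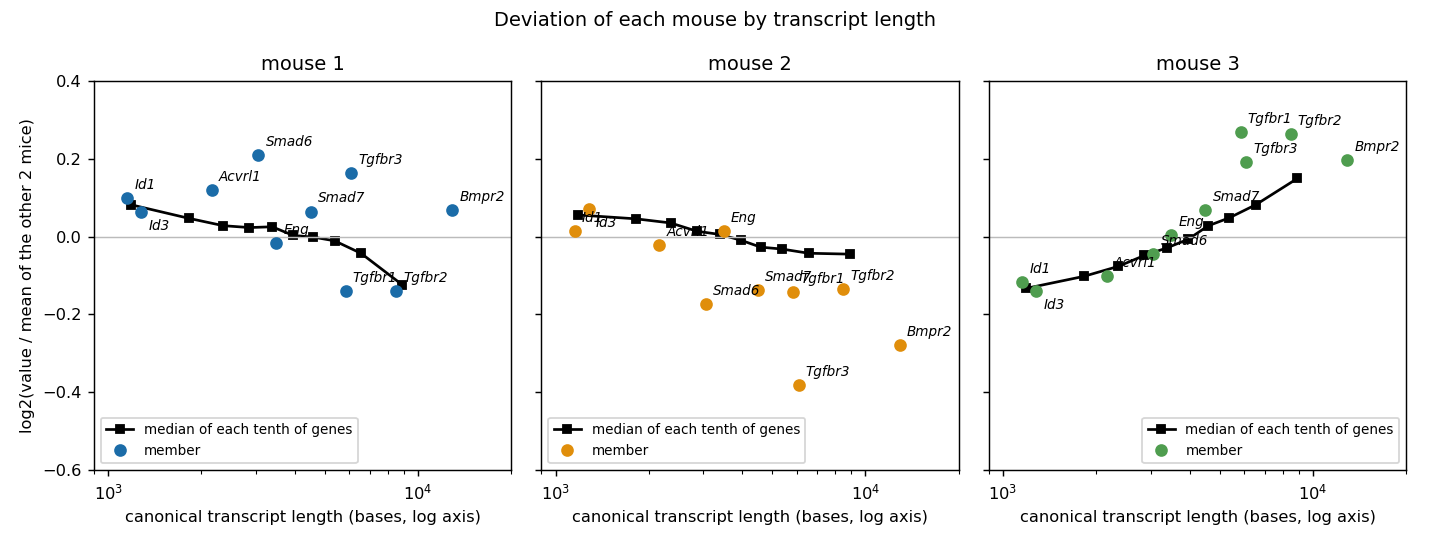
Deviation of each mouse from the mean of the other mice (vertical axis, log2) against canonical transcript length (horizontal axis, log scale). Black squares are medians of successive groups of 10% of the 9356 genes by length and colored points are the 10 genes, of which the long Tgfbr1, Tgfbr2, Tgfbr3 and Bmpr2 stood above 0 and the short Id1, Id3 and Acvrl1 below 0 in mouse 3.

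None of the 10 genes had a coefficient of variation over 20%, whereas 8.00% of the 9358 genes that reached a mean of 200 did. The coefficients ran from 0.72% for Eng to 14.6% for Tgfbr3, with a median of 7.26%, against 7.37% over the 9358 genes. An alternative added after seeing the data removed the trend by length. The coefficient was then lower for 9 of the 10 genes, Eng being the exception, and their median was 4.55%. No such share or median was taken over all genes, so these values do not set the 10 genes apart. With the trend removed, Id3 had 0.79%, Id1 1.53%, Eng 1.74% and Tgfbr2 4.71%, whereas Tgfbr3 kept 13.3% and Bmpr2 10.1%. Mouse 2 was thus low in Tgfbr3 and Bmpr2 beyond the trend, with deviations from the other mice of -0.38 and -0.28 on the log2 scale against medians of -0.04 for both lengths. Among other lists, the sum of 8 immediate early genes, which respond to handling and to growth factors, was 5295, 4884 and 6642 in mice 1, 2 and 3, with 7 of the 8 lowest in mouse 2. The share of all genes that were lowest in mouse 2 was not taken. The margin was small for Ier2 (785, 755 and 775) and larger for Egr1 (1254, 996 and 1525). Fos (252, 220 and 652) and Fosb (204, 198 and 707) were far higher in mouse 3. The sum of the fibroblast genes was 3047, 3970 and 4186, and its members did not move together. Dcn (813, 579 and 1007) and Lum (458, 309 and 618) were lowest in mouse 2, whereas Col1a1 (378, 642 and 401), Col1a2 (454, 669 and 531), Col3a1 (388, 798 and 655) and Postn (344, 741 and 671) were highest in it. The sum of the endothelial genes was 22479, 21211 and 21490, lowest in mouse 2. Of its 8 genes, 3 were lowest in mouse 2. These included Flt1 (5352, 4588 and 4816) and Tek (2510, 2123 and 2376), which encode endothelial receptors of VEGF and of angiopoietins. The others were lowest in mouse 1 or mouse 3, and Pecam1 (2722, 2847 and 2668) was highest in mouse 2. The part of these lists in the values of Tgfbr3 and Bmpr2 was not tested.

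The other genes of the pathway were taken from a list of 44, of which 40 were listed in the table, 28 had a mean of at least 200 and 4 (Tgfb1, Bmp6, Smad2 and Ccn1) lay in the highest 10% per kilobase. Of the 44, 63.6% had such a mean, against 53.2% of all listed genes. The highest 10% holds 9.99% of the 9356 genes by construction. The counts by role below stand beside the same shares and rest on few genes each. The 4 symbols not listed were Bmp10, Acvr1c, Bmpr1b and Grem1. A symbol that is not listed is below the floor of the table, which holds no gene whose highest value in the 3 mice is under 4. Among 11 ligands, 6 had a mean of at least 200. Tgfb1, the main TGF-β ligand of vessels and platelets, had 615 ± 14.03 per kilobase of canonical transcript, and Bmp6, a BMP made by endothelium that induces hepcidin in the liver, had 516 ± 49.3 (SD, n = 3). They were the highest of the ligands, but their order turned under each of the 3 other lengths, with 268 for Tgfb1 and 473 for Bmp6 when all annotated exons were joined. Bmp6 had normalized counts of 2017, 1666 and 1882, and mouse 2 was lowest here as well. The circulating ligands of ALK1 had hardly any reads, since Gdf2, which encodes BMP9, had 1, 1 and 6 and Bmp10 was not listed. Bmp2 was low with 50, 108 and 81, and Bmp4 had 661, 671 and 737.

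Among the other receptors, 3 of 5 type I and 1 of 3 type II genes had a mean of at least 200. Acvr1, which encodes the BMP type I receptor ALK2, had 186.4 ± 15.5 per kilobase, Acvr1b, an activin receptor gene, had 133.7 ± 1.2, and Bmpr1a, which encodes ALK3, had 53.5 ± 17.3 (SD, n = 3). All 3 were thus below Acvrl1 in each mouse. Acvr2a, a type II receptor gene shared by activins and BMPs, had 126.6 ± 11.6 per kilobase, below Bmpr2 in each mouse, and Acvr2b had 10.4 ± 1.1 (SD, n = 3). Amhr2, the receptor of anti-Müllerian hormone, had 6, 7 and 6 normalized counts.

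Among the 6 other Smads, 5 had a mean of at least 200, and the coefficient of variation was over 20% in none of these 5. Smad1 and Smad5, the receptor Smads of the BMP branch, had 1220 ± 32.6 and 1922 ± 45.5 normalized counts, and Smad9 was low with 194, 102 and 138. Of the TGF-β branch, Smad2 had 869 ± 57.5 and Smad3 376 ± 61.2, and the common partner Smad4 had 1083 ± 19.1 (SD, n = 3). Per kilobase of canonical transcript, Smad2 had 528 ± 35.0 and was the highest of these (SD, n = 3). Under each of the 3 other lengths Smad5 was highest, and with all annotated exons joined Smad2 had 77.3 against 249 for Smad5. Smad9 was lowest under all 4 lengths, at 26.7 ± 8.6 per kilobase of canonical transcript (SD, n = 3). Id2 had 207.9 ± 31.1 per kilobase and Id4 15.02 ± 2.79 (SD, n = 3), so both stood below Id1 and Id3 in each mouse.

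Among 10 antagonists and corepressors, 6 had a mean of at least 200. The corepressor Ski was highest per kilobase at 401 ± 14.6 (SD, n = 3), except with coding length, by which Fstl1 was higher. The ubiquitin ligase genes Smurf1 and Smurf2, whose products target receptors together with inhibitory Smads, had 1071 ± 149.6 and 1392 ± 99.6 normalized counts (SD, n = 3). The secreted proteins of this group differed widely in level. The BMP and activin antagonists Nog, Fst and Bmper were low, with 84, 23 and 19 normalized counts for Nog, 6, 12 and 16 for Fst and 19, 11 and 12 for Bmper. Fstl1, which encodes a secreted follistatin-like glycoprotein, had 1305, 1528 and 1560, or 374 ± 35.4 per kilobase (SD, n = 3). Among 7 other target genes, 6 had a mean of at least 200, and in 3 of these 6 the coefficient of variation was over 20%, against 8.00% of all genes. Tgfbi had 407, 385 and 645, Ccn2 had 716, 765 and 1064 and Tmem100, a target of ALK1, had 217, 218 and 336, each highest in mouse 3. Atoh8, a target of the BMP branch in endothelium, had 769, 620 and 757, and Hey1 had 1221, 1068 and 1006. Several of these targets are shared with Notch, YAP or inflammatory signals, and fibroblasts express Ccn2 and Tgfbi, whose part was not tested. The sum of the 8 mural cell genes was 1372, 1917 and 2104 in the 3 mice, also highest in mouse 3. Its genes did not all move together, with 31, 118 and 240 for Myh11 but 542, 615 and 505 for Rgs5. The part of mural cells in these targets was not tested.

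**Figure D4:**
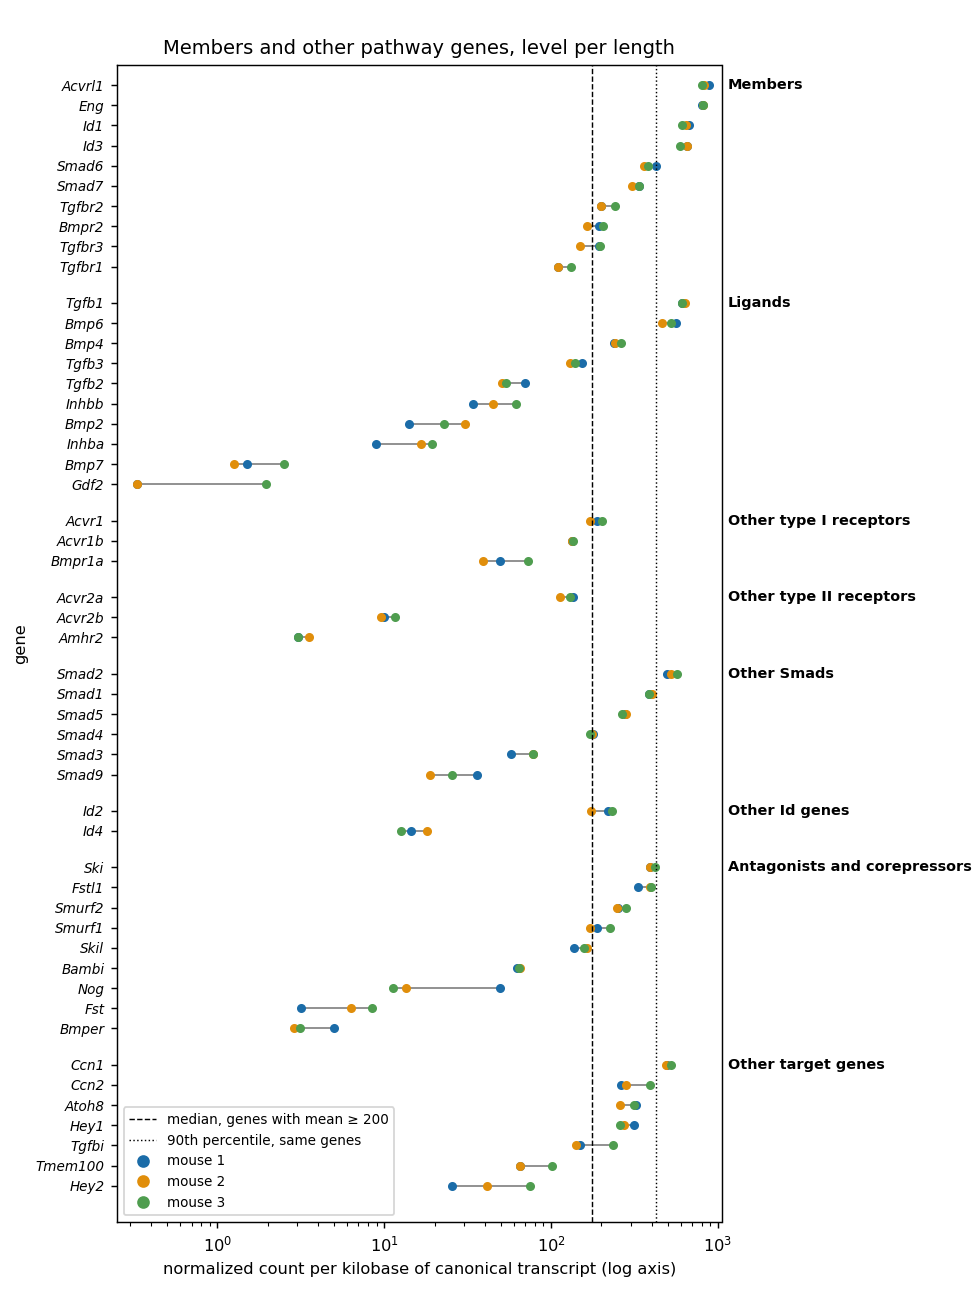
Normalized counts per kilobase of canonical transcript (horizontal axis, log scale) for the 10 genes and 40 other pathway genes, grouped by role, with 1 point per mouse and a line over their range. The dashed and dotted lines mark the median (176.3) and the 90th percentile (428) of these 9356 genes, and Acvrl1 and Eng stood highest of all genes shown on this scale, which uses the canonical length.

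Genes of the most similar level were named for Eng, Bmpr2 and Id1, by the smallest root mean square difference in log2 level per kilobase over the 3 libraries. For Eng these were Mgll (0.040), 1500011B03Rik (0.052) and Mgp (0.052). The genes nearest to Bmpr2 were Tbc1d2b (0.034), Nbl1 (0.034) and Hacd3 (0.037), and those nearest to Id1 included C130074G19Rik (0.010) and Vamp3 (0.013). The measure follows the level in a single condition, and many genes lie close to each other on it.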

How the data were processed

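Ribosome-associated RNA of 3 EC-RiboTag hearts was sequenced (single-end, 72 bases). Trimming by the authors used Trimmomatic 0.39, and alignment to mm39 (Ensembl release 109) used STAR 2.7.11a. Duplicates (Picard 3.1.1) and multi-mapping, ribosomal and mitochondrial reads were dropped, exonic reads on the correct strand were counted with featureCounts 2.0.4, and the table was scaled with DESeq2 1.36.0. The deposited values are treated as a score, since the authors divided counts by size factors and rounded them. Such values are not raw counts, so no count model was run.

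The 10 genes and all lists were chosen with earlier results of these data known. Named genes are these 10, a pathway list by role, and the 3 genes nearest in level to Eng, Bmpr2 and Id1. Of these, 1 gene of the pathway list and 1 of the nearest genes are not reported here and are left out of the counts. Values are means ± SD over mice. Transcript lengths were looked up in GENCODE for GRCm39, which held 17475 of 17583 identifiers (99.4%), and gene coordinates are those of the deposited table. The lengths were not taken from Ensembl release 109, on which the authors counted reads. The joined exons and shared exonic bases given here may therefore differ from the exons that were counted. Ratios were taken within mice and tested two-sided by sign flips (exact permutation test). The worth of 1 read was estimated at 0.977, 1.06 and 0.961 normalized counts. Deviations of a mouse from the others used a pseudocount of 0.5. The scripts were tested on simulated data. Alternatives were other lengths, scaling by trimmed means of log ratios (30% and 5% trimmed) or equal totals, other limits, a pseudocount of 1 and leaving out each mouse. Python 3.11.15, numpy 2.4.6 and pandas 2.3.3 were used.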

Additional observations from a re-analysis of the deposited data

How the results depend on the processing

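Of the ratios between genes of like role, Acvrl1 to Tgfbr1 and Eng to Tgfbr3 kept their direction under every alternative run, and those with other lengths lay between 1.21 and 1.41 and between 1.195 and 1.76 on the log2 scale. Without division by length, the log2 ratio turned to 0.42 for Bmpr2 to Tgfbr2, -0.31 for Smad6 to Smad7 and -0.13 for Id1 to Id3. With coding length it turned to -0.53 for Smad6 to Smad7 and -0.45 for Id1 to Id3, and with all annotated exons joined to -0.12 for Id1 to Id3. The lengths alone set these turns, since the counts are the same. With each mouse left out, the ratios ranged from 2.75 to 2.96 (Acvrl1 to Tgfbr1), -0.25 to -0.13 (Bmpr2 to Tgfbr2), 2.05 to 2.25 (Eng to Tgfbr3), 0.20 to 0.28 (Smad6 to Smad7) and 0.002 to 0.032 (Id1 to Id3). The number of genes in the highest 10% per kilobase was 4, with 3 by coding length and 6 by joined exons. Rescaling the libraries moved the mean over the mice by no more than 0.065% for any of the 10 genes. The scaling factors of the mice nearly cancel in such a mean. It therefore cannot show how values in single mice depend on the scaling. The coefficient of variation of Eng was not taken again after rescaling, so its dependence on the scaling was not tested. No paired analysis was possible because the series has a single group.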
